A study of Homo sapiens with 6 samples.

Results

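OVCAR3 cells, a line of human high-grade serous ovarian adenocarcinoma, expressed 411 antisense RNAs that carry a name built from the gene on the opposite strand, such as NNT-AS1 for NNT. These RNAs were chosen by their symbol, which ends in -AS and a number, and selected on their level, with 10 or more normalized reads in 3 or more of the 6 libraries. There were 1248 such symbols among the 47577 loci of the deposited table. One of them, EPB41L4A-AS1, was set aside by the rule, 836 stayed under the minimum, and 455 of the latter were listed at 0 in all 6 libraries. Just inside the minimum were SNRK-AS1 (11.1, 9.28 and 17.6 in DMSO; 10.1, 6.82 and 2.28 in THZ531), SLC5A4-AS1 and UBXN7-AS1. Just outside it were DEPDC1-AS1 and TONSL-AS1, both with a value of 9.53 in the library that ranked 3 for them, and CALML3-AS1 with 9.28. The libraries were polyA plus RNA from 3 samples treated with DMSO, the solvent, and 3 samples treated with 200 nM THZ531, which inhibits CDK12 and CDK13 by binding them covalently, for 6 h. All 6 came from a single cell line in the same culture medium, and nothing in the labels says that the replicates were separate cultures, so the p-values measure the spread between these samples only. The sample titles name THZ531, while a treatment note gives the name of a related inhibitor, THZ1, with the same dose.

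Antisense RNAs are transcribed from the strand opposite to a gene. Many start at or near the promoter of that gene, because RNA polymerase II can begin transcription in both directions from an open promoter, and others start downstream and run into the gene from its 3′ end. Most are spliced and polyadenylated at low levels and many are removed in the nucleus by the RNA exosome. CDK12 and CDK13 phosphorylate the tail of RNA polymerase II and sustain elongation along genes, and CDK12 activity is known to keep the polymerase from ending early at polyadenylation signals inside genes.

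The reads counted on loci ranged from 53054048 to 70986130 per library. The values are reads after division by size factors, which ranged from 0.794 to 1.26, and they are not corrected for gene length. Keratins (KRT7, KRT8 and KRT18), EPCAM, MUC16, SOX17, MSLN and CLDN3 marked the cells as epithelial. Of the other serous ovarian markers listed, PAX8 fell from 11272 with DMSO to 1241 with THZ531 (log2 fold change -3.18). WT1 was at 650 and 579, while FOLR1 (103 and 125) and ESR1 (59.4 and 56.4) were as low as some markers of other cell types. Of 8 markers of leukocytes, endothelium and fibroblasts, CD3E was listed at 0 in all libraries and DCN reached at most 3.19. The other 6 were present. COL1A1 rose from 995 to 2190 (log2 fold change 1.14) and VWF from 89.0 to 144 (0.73, adjusted p = 0.0074 in limma), while CD68 (404 and 410), PECAM1 (63.9 and 59.3), PTPRC (33.6 and 24.1) and ACTA2 (70.4 and 52.4) were not called. The part of such shifts in the results was not tested. Of the 411 antisense RNAs, 403 matched the GENCODE v44 annotation, 397 of them as long noncoding RNAs and 6 as pseudogenes. The library kit keeps strand, but the strand setting of the read counting is not given in the sources used here. Exons of 271 of the 366 antisense and sense pairs described further on overlap, and there the values may hold reads of both strands.

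Promoter sequence was examined because many antisense RNAs share a promoter with the sense gene. RefSeq promoter windows, from 250 bases before to 50 bases after the start site on hg38, were found for 310 of the 411. In 74 of them the window shared bases with that of the sense gene. The windows of 3 antisense RNAs that moved against a sense gene whose window they share, and of the antisense RNA with the largest fall at a mean of at least 50, are shown in the direction of the antisense RNA. Capitals mark the letters of 3 common promoter motifs, searched on both strands. These are the TATA box (TATAAA), which places the start of transcription, the box bound by the factor NF-Y (CCAAT), and the GC box bound by factors of the Sp family (GGGCGG), and no copies overlap in the windows shown.
ELF3-AS1: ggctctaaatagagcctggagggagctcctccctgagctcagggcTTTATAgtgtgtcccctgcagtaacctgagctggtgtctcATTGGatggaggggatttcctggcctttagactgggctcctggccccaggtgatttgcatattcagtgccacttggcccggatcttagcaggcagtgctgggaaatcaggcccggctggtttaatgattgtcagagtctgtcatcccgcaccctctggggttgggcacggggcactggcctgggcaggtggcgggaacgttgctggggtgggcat
ID2-AS1: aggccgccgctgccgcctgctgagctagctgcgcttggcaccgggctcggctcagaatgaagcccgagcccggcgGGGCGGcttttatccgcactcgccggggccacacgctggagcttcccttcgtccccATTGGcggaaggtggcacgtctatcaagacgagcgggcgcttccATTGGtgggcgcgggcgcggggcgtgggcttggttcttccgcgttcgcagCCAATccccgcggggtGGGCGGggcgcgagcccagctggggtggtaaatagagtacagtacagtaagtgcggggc
BRWD1-AS2: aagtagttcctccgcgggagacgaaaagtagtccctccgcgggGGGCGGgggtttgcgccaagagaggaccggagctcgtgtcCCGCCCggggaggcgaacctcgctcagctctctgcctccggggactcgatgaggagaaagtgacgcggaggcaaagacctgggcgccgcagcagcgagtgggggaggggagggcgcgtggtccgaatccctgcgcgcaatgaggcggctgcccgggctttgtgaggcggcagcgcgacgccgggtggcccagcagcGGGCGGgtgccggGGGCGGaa
NNT-AS1: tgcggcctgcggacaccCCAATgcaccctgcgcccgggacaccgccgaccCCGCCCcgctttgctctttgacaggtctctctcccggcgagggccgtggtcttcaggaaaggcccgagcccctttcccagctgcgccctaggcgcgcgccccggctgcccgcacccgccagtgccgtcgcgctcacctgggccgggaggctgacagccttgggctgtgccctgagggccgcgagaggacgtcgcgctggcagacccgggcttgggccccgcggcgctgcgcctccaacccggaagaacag
The ELF3-AS1 window (chr1:202010304-202010603, minus strand) shares 267 of its 300 bases with the ELF3 window and holds both a TATA box and a CCAAT box, each read on the strand of ELF3. The ID2-AS1 window (chr2:8681814-8682113, minus strand) shares 292 bases with that of ID2 and holds 3 CCAAT boxes and 2 GC boxes. The BRWD1-AS2 window (chr21:39313657-39313956, plus strand) shares 226 bases with that of BRWD1 and holds 4 GC boxes and neither of the other motifs. The NNT-AS1 window (chr5:43603181-43603480, minus strand) shares no base with the NNT window and is 74.0% G and C. Over the 310 windows, the median content of G and C was 65.0% and the median number of CpG dinucleotides was 24, against 58.7% and 14 over all 35116 RefSeq windows of the same length. TATAAA was found in 6.45% of the antisense windows (11.5% of all), CCAAT in 30.3% (34.6% of all) and GGGCGG in 61.9% (45% of all). Among the antisense RNAs that rose, that fell and that were not called, GGGCGG was found in 54.1% of 37, 59.8% of 117 and 65.4% of 156 windows.

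With THZ531, antisense RNAs fell more often than they rose. A call required a change of 1.5-fold or more with an unadjusted p no higher than 0.05 in limma, fitted over all 17568 loci at the minimum. Of the 411 antisense RNAs, 146 (35.5%) fell, 49 (11.9%) rose and 216 were not called. Over all loci tested, 23.9% fell and 15.7% rose, so that 39.5% were called in either direction, against 47.4% of the antisense RNAs. The median log2 fold change was -0.31 for the antisense RNAs and -0.01 for all loci, and 207 antisense RNAs had a Benjamini-Hochberg adjusted p of at most 0.05 in limma. A fold change of at least 2 was reached by 105 of those that fell and 35 of those that rose, and one of at least 4 by 27 and 5. The groups did not overlap for 162 of the 411 antisense RNAs that were lower and 64 that were higher in all 3 THZ531 libraries. Of all 17568 loci, 6271 were lower and 6326 higher without overlap, together 71.7%. The share without overlap was thus smaller among the antisense RNAs, and more of it was lower. In bulk RNA, fewer cells with a transcript and less of it per cell cannot be told apart.

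Scaling moved this split. When all libraries were given an equal total, the median of all loci shifted to -0.25, 30 antisense RNAs were called higher and 173 lower, and 85.2% of the called were lower in place of 74.9%. Over all loci, 77.3% of the called were then lower in place of 60.4%. Scaled to RPL34, the median of all loci shifted to -0.50, with 19 called higher and 216 lower (91.9% lower, beside 87.5% over all loci). The antisense median moved with it, to -0.54 and -0.79, and changes are given relative to the deposited scaling from here on.

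Together the 411 antisense RNAs made up 0.151 to 0.153% of the normalized reads in the DMSO libraries and 0.0916 to 0.0952% in the THZ531 libraries. The total of normalized reads was itself larger with THZ531 (65875609 to 66820371, against 55389676 to 56639224 with DMSO), which lowers the share. Their summed value was 85067 ± 1478 (SD, n = 3) with DMSO and 61985 ± 1372 (n = 3) with THZ531, a ratio of 0.729, which was 0.712 without the 10 most abundant. Those 10 held between 40.3 and 42.5% of the antisense reads in each library. The median antisense RNA had a mean of 47.6 normalized reads, against 750 for all named loci at the minimum. Only 25 reached a mean of 500, and 289 stayed under 100.

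**Figure D1:**
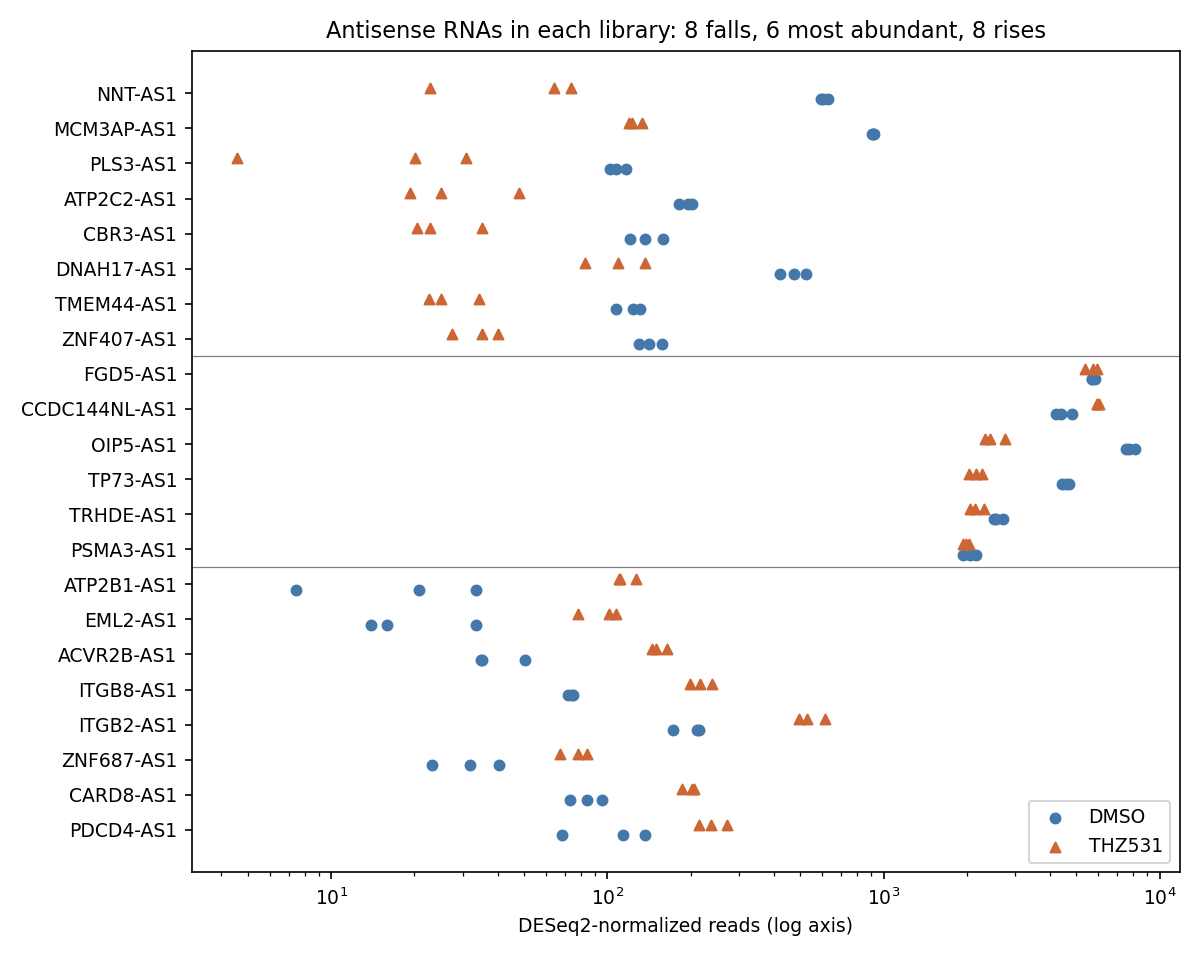
Normalized reads (horizontal log axis) in each of the 3 DMSO libraries (circles) and 3 THZ531 libraries (triangles), 1 row per antisense RNA. The upper 8 are the falls and the lower 8 the rises chosen by size of change, in each of which the groups do not overlap; of the 6 most abundant in the middle, OIP5-AS1 and TP73-AS1 fell past the threshold.

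The 6 most abundant antisense RNAs went different ways. OIP5-AS1 (also known as Cyrano; chr15:41283990-41313338), a conserved noncoding RNA that pairs with the microRNA miR-7, had 7556, 7777 and 8136 normalized reads in DMSO and 2331, 2752 and 2428 in THZ531. CHP1 ends within 5 kb upstream on the same strand. Every THZ531 library was below every DMSO library, and the log2 fold change was -1.65 ± 0.06 (SE; limma, adjusted p = 1.1e-12). OIP5 was called lower as well (-0.60), but lost its call without DMSO replicate 2 (-0.56) or THZ531 replicate 3 (-0.57). TP73-AS1 (chr1:3735984-3747373), which runs into the 3′ end of the p53 family gene TP73, had 4432, 4579 and 4704 reads in DMSO and 2043, 2171 and 2275 in THZ531. All THZ531 libraries were below all DMSO libraries (log2 fold change -1.08). TP73 itself fell further, with a log2 fold change between -2.78 and -2.60 when 1 library was left out. FGD5-AS1 (chr3:14920355-14948441) had 5853, 5713 and 5710 reads in DMSO and 5913, 5726 and 5351 in THZ531. Its groups overlapped, and the interval of its log2 fold change ran from -0.12 to 0.07. CCDC144NL-AS1 was 4482 ± 302 (SD, n = 3) with DMSO and 5962 ± 51.7 (n = 3) with THZ531, above DMSO in all 3 libraries but under the fold threshold (0.41). Near-identical copies of the CCDC144 genes lie on the same chromosome, so its reads are uncertain. TRHDE-AS1 (-0.25) and PSMA3-AS1 (-0.05) were not called either.

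Among antisense RNAs with a mean of at least 50, NNT-AS1 and MCM3AP-AS1 fell most (only some of the low ones that fell further are given, with the limit of detection). NNT-AS1 (chr5:43571592-43603230, minus strand) starts 555 bases inside NNT, which encodes the mitochondrial nicotinamide nucleotide transhydrogenase, and runs away from it. It had 594, 605 and 630 reads in DMSO and 64.2, 73.9 and 22.8 in THZ531, so that all 3 THZ531 libraries lay far below DMSO. The log2 fold change was -3.65 ± 0.30 (SE; limma, adjusted p = 2.3e-08). NNT itself stayed at 1836 ± 103 (SD, n = 3) and 2068 ± 137 (n = 3), a log2 fold change of 0.17. MCM3AP-AS1 (chr21:46229230-46254133, plus strand) lies across 19001 bases of the 3′ part of MCM3AP, whose product takes part in the export of mRNA from the nucleus. It had 910, 921 and 918 reads in DMSO and 134, 123 and 119 in THZ531, with replicates close to each other in both groups (log2 fold change -2.86 ± 0.11, adjusted p = 2.4e-12 in limma). MCM3AP had a log2 fold change of -0.14. DNAH17-AS1, inside the dynein heavy chain gene DNAH17, went from 474 ± 50.9 to 110 ± 26.7 (log2 fold change -2.13), and DNAH17 fell by less (-0.79). PLS3-AS1 (-2.83), ATP2C2-AS1 (-2.72), CBR3-AS1 (-2.39), TMEM44-AS1 (-2.12) and ZNF407-AS1 (-2.05) complete the 8 largest falls by this choice.

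By the same choice (called, mean of at least 50, groups that do not overlap), the largest rise was that of ATP2B1-AS1. ATP2B1-AS1 (chr12:89708955-89711952, plus strand) starts 411 bases inside ATP2B1, a calcium pump of the plasma membrane. It had 33.3, 7.42 and 20.7 reads in DMSO and 111, 110 and 127 in THZ531, so that all 3 THZ531 libraries lay above DMSO while the DMSO libraries spread widely. Its log2 fold change was 2.66 ± 0.41 (SE; limma, adjusted p = 2.4e-05), and ATP2B1 rose as well (0.78), with a difference between both of 1.89 (adjusted p = 0.022 in limma). ITGB8-AS1, at the start of the integrin gene ITGB8, had 72.2, 75.2 and 74.2 reads in DMSO and 199, 239 and 216 in THZ531. The integrin gene fell at the same time (-0.85). ITGB2-AS1 rose from 199 ± 23.5 to 545 ± 61.1 (1.45) and ITGB2, the integrin beta chain of leukocytes, changed by 0.22. EML2-AS1 (2.22), ACVR2B-AS1 (1.93), ZNF687-AS1 (1.27), CARD8-AS1 (1.23) and PDCD4-AS1 (1.23) complete the 8 largest rises by this choice.

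Several other well-known antisense RNAs moved too. SVIL-AS1 (chr10:29409534-29487856) had 971, 1084 and 1077 reads in DMSO and 2351, 2154 and 2050 in THZ531, higher than DMSO in every library (log2 fold change 1.06 ± 0.07, adjusted p = 9.1e-10 in limma). SVIL, which encodes the actin-binding supervillin, fell from 11916 ± 445 to 4219 ± 170 (-1.50), and the difference of 2.56 passed the test (adjusted p = 4.7e-05 in limma). TTN-AS1 rose from 381 ± 15.9 to 671 ± 35.2 (0.81), and TTN, the titin gene of muscle, was listed at 12.5 to 77.4 with overlapping groups. TMPO-AS1 fell from 718, 782 and 739 to 421, 377 and 394 (-0.91), and SBF2-AS1 fell by 0.85 on the log2 scale, close to SBF2 (-0.72), which lost its call without THZ531 replicate 1 (-0.52). PCNA-AS1, which lies whole inside the gene of the replication clamp PCNA, rose from 34.6 ± 11.5 to 65.9 ± 6.95 (0.96), beside a rise of PCNA from 6136 to 11121 (0.86). Their difference of 0.10 was not called (adjusted p = 0.77 in limma), and the values may hold reads of both strands there. ZEB1-AS1 fell (-0.91) and ZEB1, a repressor of epithelial genes, rose (0.82), but the first call was lost without DMSO replicate 2 (-0.72, adjusted p = 0.15 in limma) or THZ531 replicate 3 (-0.65, adjusted p = 0.13), and the second without DMSO replicate 2 (0.58, adjusted p = 0.067). HOXA-AS2 (-0.19), CDKN2B-AS1 (-0.45), VIM-AS1 (-0.23) and MAPKAPK5-AS1 (0.52) were not called. CDKN2B-AS1 was spread from 64.8 to 161 within THZ531 and passed the test without THZ531 replicate 2 (-0.81).

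**Figure D2:**
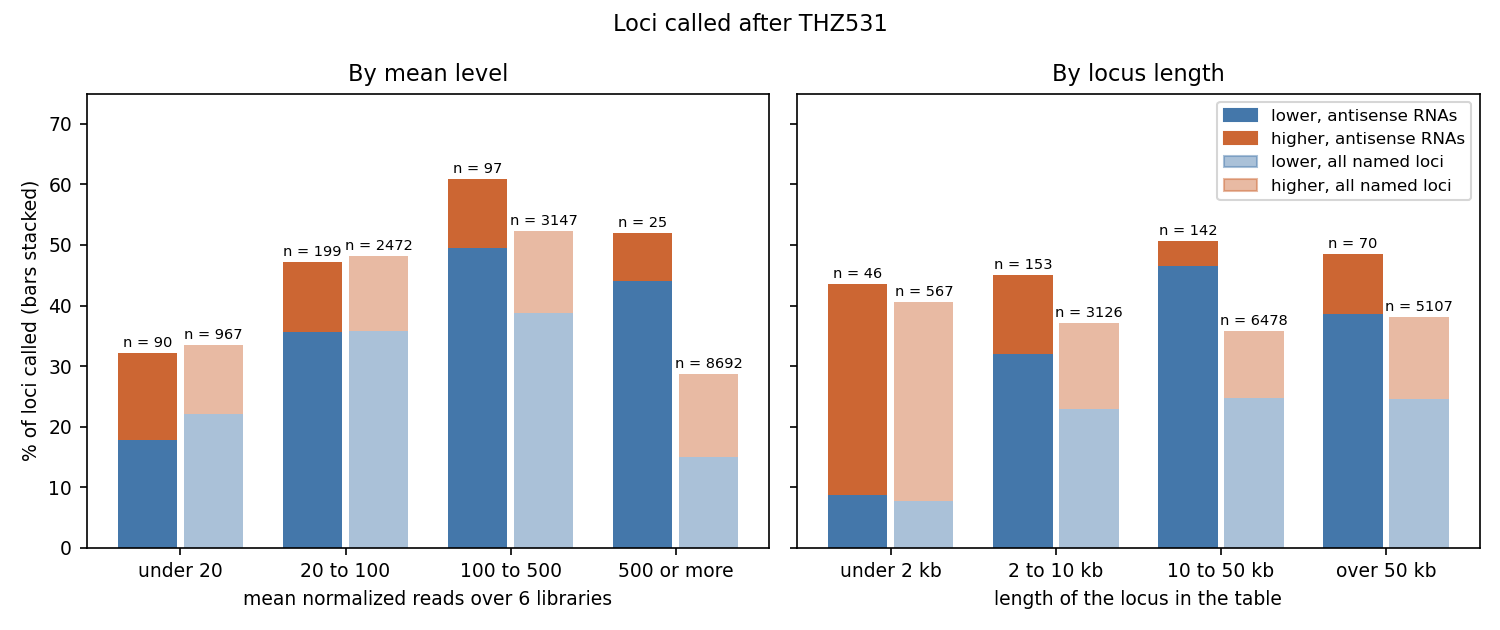
Percentage of loci called lower and higher (stacked bars from 0, vertical axis in %) by mean level and by locus length, for the antisense RNAs (full colour) and for all named loci at the minimum, the antisense RNAs included (pale). At a mean of 500 or more 44% of the antisense RNAs were lower against 14.9% of all named loci, whose median DMSO level was higher (2203 against 1044). Under 2 kb rises outnumber falls in both.

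The share of antisense RNAs that fell was close to that of other loci at low levels and departed from it at high levels. Under a mean of 20 normalized reads, 17.8% of 90 antisense RNAs fell, beside 22.1% of all named loci. From 20 to 100 it was 35.7% of 199, beside 35.8%, and from 100 to 500 it was 49.5% of 97, beside 38.8%. At 500 or more it was 44% of 25, beside 14.9% of 8692 named loci, and the median log2 fold change there was -0.54 against 0.12. Low loci have less power, so levels were kept apart here. The highest level has no upper limit, and there the median in DMSO was 1044 for antisense RNAs against 2203 for named loci. Levels were thus not matched there, and the part of this in the shares was not tested.

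Shares were also counted by length. Antisense RNAs are lower in level than other named loci of the same length, with a median in DMSO of 54.7 against 952 from 10 to 50 kb and of 60.5 against 822 over 50 kb, so level and length cannot be told apart in these shares. Of 46 antisense RNAs under 2 kb, 34.8% rose and 8.70% fell, which was near the 32.8% and 7.76% of all 567 named loci of that length. From 2 to 10 kb, 13.1% of 153 rose and 32.0% fell, beside 14.1% and 23.0% of 3126 named loci. From 10 to 50 kb, 4.23% of 142 rose and 46.5% fell, while 11.2% and 24.7% of the 6478 named loci of that length did. Over 50 kb, 38.6% of 70 antisense RNAs fell, beside 24.6% of 5107 named loci. The median length was 15863 bases for those that fell, 2998 for those that rose and 9099 for those that were not called, while over all named loci it was 28544, 28502 and 28053. AATAAA, the core letters of the polyadenylation signal, were searched on the antisense strand over the whole locus. They occurred 0.817 times per kb in the median antisense RNA and 0.728 times in the median named locus, with 0.781 per kb in the antisense RNAs that fell and 0.826 in those that rose. Between 10 and 50 kb, the medians were 0.781 for the 66 that fell, 0.720 for the 6 that rose and 0.884 for the 70 not called. From 2 to 10 kb they lay further apart, at 0.564 for the 47 with a known strand that fell, 1.12 for the 20 that rose and 0.628 for the 84 not called. Over all named loci from 2 to 10 kb they were 0.401, 0.486 and 0.442 in the same order. These differences were not tested.

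Antisense RNAs were then grouped by their position against the sense gene on the opposite strand. The most common arrangement, found in 168, was an overlap of the 5′ ends, in which both genes start inside each other. Of these, 57 (33.9%) fell and 21 (12.5%) rose (median log2 fold change -0.19). Divergent pairs without overlap numbered 73, of which 25 antisense RNAs (34.2%) fell and 10 (13.7%) rose (-0.44). Both are near the shares of all 411 antisense RNAs, of which 35.5% fell and 11.9% rose. Over all loci, 23.9% fell and 15.7% rose. Of the 78 antisense RNAs that start elsewhere and overlap the 3′ end of the sense gene, 37 (47.4%) fell and 6 (7.69%) rose, with the lowest median of the 5 positions with more than 20 members, -0.76. Inside the sense gene lay 58, of which 17 (29.3%) fell and 9 (15.5%) rose (-0.20). Another 21 enclosed it, of which 5 (23.8%) fell and 2 (9.52%) rose (-0.21). The position classes also differ in level and length, and no test between them was run. Of the 94 antisense RNAs whose locus overlaps no other expressed named locus, 37 (39.4%) fell and 9 (9.57%) rose (median -0.55).

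**Figure D3:**
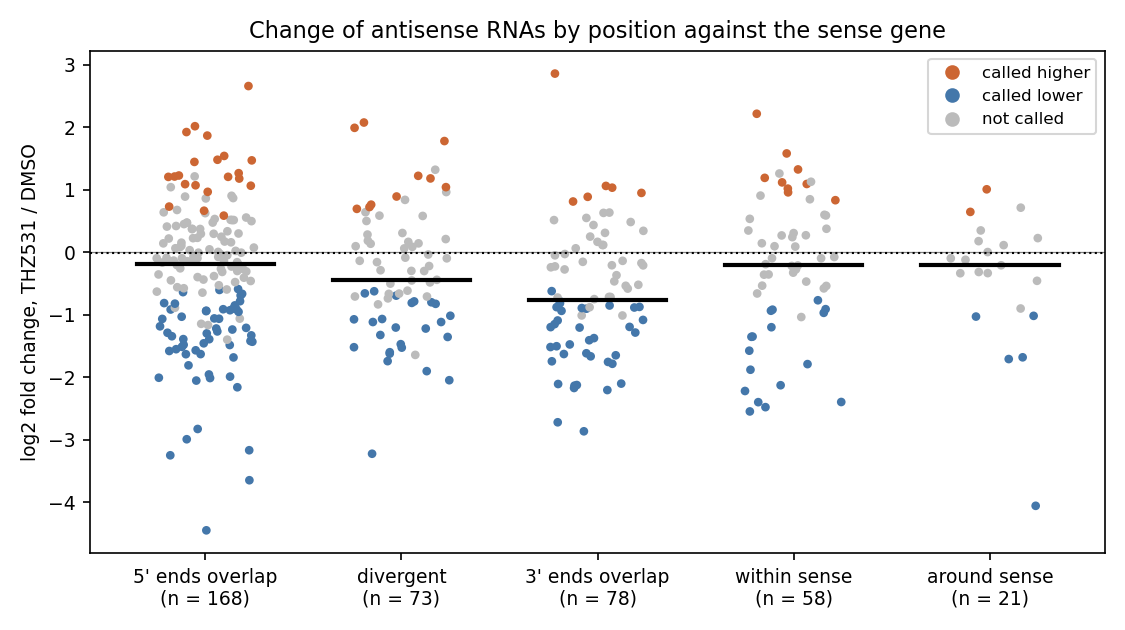
Log2 fold change, THZ531 over DMSO (vertical axis), of the antisense RNAs in 5 classes of position against the sense gene, with the median as a bar and the median of all 17568 loci as a dotted line. The median is -0.76 where the 3′ ends overlap and -0.19 where the 5′ ends overlap, and each of the 5 classes plotted holds rises as well as falls.

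The sense gene passed the same minimum for 366 antisense RNAs, which belong to 363 genes. Per kb of exon, the median antisense RNA with DMSO was at 7.67% of the level of its sense gene, over 359 pairs with annotated exons, and 47 were above the sense gene. Of the 366 sense genes, 56 rose and 89 fell, with a median log2 fold change of 0.12. Both members were called in 72 pairs, and they moved in opposite directions in 30 of these. In 34 pairs both fell, in 8 both rose, in 18 the antisense RNA fell while the sense gene rose, and in 12 it was the reverse. In 79 pairs the antisense RNA fell and the sense gene was not called. Across the 366 pairs, which share their 6 libraries, the log2 fold changes of both members had a Pearson r of 0.07 and a Spearman rho of 0.09. For antisense RNAs inside the sense gene, r was 0.34 over 51 pairs, and reads of both strands can mix there. Over the 271 pairs whose exons overlap, r was 0.03, and over the 88 pairs whose exons do not, it was 0.16. The part of mixed reads in these values was not tested. The difference between both log2 fold changes was tested within each library with limma over 8668 pairs of neighbouring or named loci. The log2 fold change of the antisense RNA lay below that of the sense gene in 115 pairs and above it in 74, which is 51.6% of the 366 pairs against 49.2% of all pairs tested, so a different change was about as common in any neighbouring pair.

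**Figure D4:**
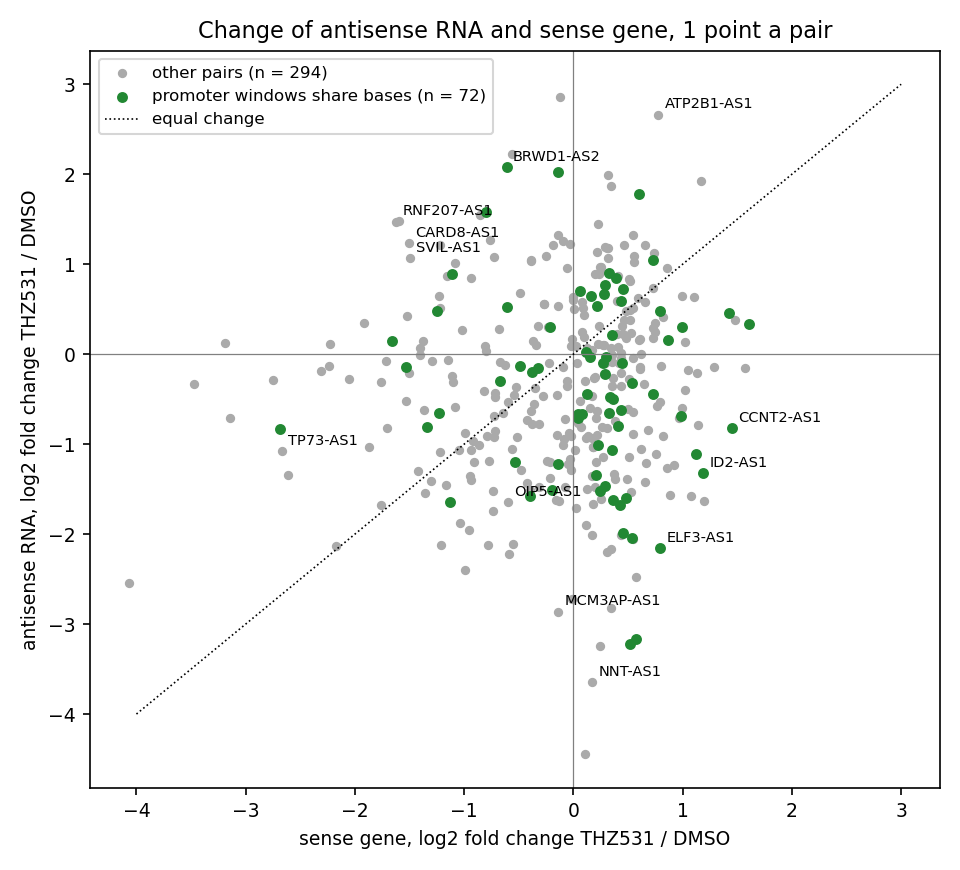
Log2 fold change of the sense gene (horizontal axis) and of the antisense RNA (vertical axis), THZ531 over DMSO, 1 point for each of 366 pairs. Green points are the 72 pairs whose promoter windows share bases, and the points are spread over all 4 quadrants around the line of equal change (dotted), with a Pearson r of 0.07.

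Some pairs that share a promoter window moved apart. Of the 74 antisense RNAs in such pairs, 26 fell and 10 rose, and both members were called in 11 pairs, 8 times in opposite directions. Of the 195 whose window shares no base with that of the sense gene, 73 fell and 23 rose, and both members were called in the same direction 24 times and in opposite directions 14 times. The difference between these groups was not tested. The 5 pairs with a lower antisense RNA and a higher sense gene were ELF3-AS1, ID2-AS1, LENG8-AS1, CCNT2-AS1 and TBC1D8-AS1. ELF3-AS1 had 70.7, 75.2 and 52.7 reads in DMSO and 11.3, 15.9 and 14.8 in THZ531, and ELF3, an epithelial transcription factor, had 5630, 5537 and 4790 and then 9344, 9337 and 8956. Neither gene's groups overlapped, and the log2 fold changes of -2.16 and 0.80 differed by 2.95 (adjusted p = 0.00015 in limma). LENG8-AS1 had 487, 522 and 614 reads in DMSO and 236, 247 and 264 in THZ531 (-1.11), from a start 161 bases from that of LENG8, which rose (1.12). CCNT2-AS1 (-0.82) lies at the start of CCNT2, which encodes cyclin T2 of the elongation factor P-TEFb and rose from 254 ± 29.5 to 695 ± 18.1 (1.45). ID2-AS1 fell from 27.1 ± 3.10 to 11.5 ± 6.00 (-1.32) while ID2, an inhibitor of basic helix-loop-helix factors, rose from 2320 to 5286 (1.19). Without 1 library, several of these calls were lost: ID2-AS1 without DMSO replicate 3 (-1.24, adjusted p = 0.078 in limma) or THZ531 replicate 3 (-0.81, adjusted p = 0.11), CCNT2-AS1 without DMSO replicate 2 (-0.72, adjusted p = 0.080), and TBC1D8-AS1 (-0.69) without THZ531 replicate 1 (-0.54).

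The 3 shared windows with a higher antisense RNA and a lower sense gene belonged to BRWD1-AS2, RASSF1-AS1 and WWC2-AS2. BRWD1-AS2 had 9.53, 12.1 and 12.8 reads in DMSO and 68.0, 51.2 and 38.7 in THZ531 (2.08), above DMSO in every library. BRWD1, a bromodomain gene, went from 3680 ± 50.2 to 2408 ± 25.1 (-0.61). RASSF1-AS1 (1.58) reached the minimum only through THZ531, and WWC2-AS2 (0.90) lost its call when DMSO replicate 1 or 2 or THZ531 replicate 1 or 2 was left out (0.66 to 0.90). In 3 pairs with a shared window both members moved together. KMT2E-AS1 and KMT2E rose (1.04 and 0.73), as did STIM2-AS1, which reached the minimum only through THZ531, and STIM2 (1.78 and 0.60), while ZNF561-AS1 and ZNF561 fell (-0.81 and -1.34). STIM2 lost its call without DMSO replicate 1, THZ531 replicate 2 or THZ531 replicate 3 (0.58 each), and ZNF561-AS1 without THZ531 replicate 2 (-0.57).

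Outside the shared windows, the largest opposite changes were found at CARD8, RNF207, HDAC4, NR2F2 and ARRDC3. CARD8-AS1 had 73.0, 84.4 and 95.7 reads in DMSO and 207, 202 and 187 in THZ531, while CARD8, a sensor of the inflammasome, had 168, 230 and 228 and then 89.4, 56.8 and 73.9. The antisense RNA thus went from below its sense gene to above it in every library, on the scale of reads not corrected for length. HDAC4-AS1 (1.48) rose beside a fall of the histone deacetylase gene HDAC4 (-1.59), and RNF207-AS1 (1.47) beside a fall of RNF207 (-1.62), with no THZ531 library of either antisense RNA under 20.5 and no DMSO library over 12.7. NR2F2-AS1 fell (-1.63) and the nuclear receptor gene NR2F2 rose (1.19), and ARRDC3-AS1 fell from 72.7 ± 16.2 to 24.1 ± 7.82 (-1.58) while ARRDC3, an arrestin family gene, rose from 664 to 1400 (1.07). RNF207-AS1 also overlaps TNFRSF25 on its own strand. The difference passed the test in each of these pairs (adjusted p between 0.0001 and 0.0075 in limma).

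Some antisense RNAs were near or at the limit of detection in 1 group. Of the 9 that reached the minimum only through DMSO, 8 were called lower, and of the 6 that reached it only through THZ531, 5 were called higher, so these had to differ. WEE2-AS1 had 19.1, 13.9 and 14.4 reads in DMSO and was listed at 0 in all 3 THZ531 libraries. ATP6V0E2-AS1 had 26.2, 35.3 and 33.5 in DMSO, and was listed at 0 in 2 THZ531 libraries and at 2.28 in THZ531 replicate 3. DICER1-AS1, at the start of the gene of the microRNA-processing enzyme DICER1, had 51.6, 54.7 and 16.0 in DMSO and 6.30, 3.41 and 1.14 in THZ531, and DICER1 was at 0.57, called without DMSO replicate 1 or THZ531 replicate 3 (0.59 each). In the other direction, ADAMTSL4-AS1 had 1.59, 3.71 and 2.39 in DMSO and 27.7, 34.1 and 14.8 in THZ531, and PRKAG2-AS1 went from 6.85 ± 2.48 to 31.1 ± 10.3. Among the 308 antisense RNAs with at least 10 in all 6 libraries, 115 fell and 34 rose.

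Other classes of named noncoding RNA were counted by the same minimum. Divergent transcripts, with symbols in -DT, numbered 78, of which 22 (28.2%) fell and 10 (12.8%) rose (median -0.25). These shares were near the 23.9% and 15.7% of all loci. Intronic transcripts, with symbols in -IT, lie inside introns of a host gene. Of 17, 11 (64.7%) rose while 1 (5.88%), AGPAT4-IT1, fell (median 1.22). Of the 11, 5 reached the minimum only through THZ531 and AGPAT4-IT1 did so only through DMSO, so these 6 had to differ. The highest of the 17 in THZ531 was GABPB1-IT1, which was not called (814 and 827 reads), and ALMS1-IT1 rose from 94.8 to 671. The only overlapping transcript, NABP1-OT1, fell (-2.96).

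Genes of the machinery that ends and degrades such RNAs were counted as a list. Of 32 genes of the exosome and its adaptors, the cap-binding complex, the U1 particle and early termination, 5 (15.6%) fell and 3 (9.38%) rose, beside 23.9% and 15.7% of all loci. The median log2 fold change was 0.13, and 5 rose without DMSO replicate 3 or without THZ531 replicate 3. These genes are abundant (median in DMSO 2546). Of named loci with a mean of 500 or more, 14.9% fell and 13.8% rose, with a median of 0.12, so the list was near its level class. The 5 were ZC3H4, a subunit of the complex that ends noncoding transcription early, from 1410 ± 137 to 346 ± 34.9 (-2.02), ZCCHC7 of the nucleolar exosome adaptor (-1.55), and the exosome subunit genes EXOSC2 (-1.31), EXOSC3 (-0.94) and EXOSC4 (-0.77). The 3 were the exonuclease genes XRN1 (1.17) and XRN2 (0.66) and SRRT (0.75), which links the cap-binding complex to RNA decay. Of the list, 3 genes have an antisense RNA in this set. PCF11-AS1, opposite the 3′ part of the termination factor gene PCF11, had 11.3, 19.3 and 11.4 reads in THZ531, each below all DMSO libraries (62.95 ± 15.3, SD, n = 3), a log2 fold change of -2.11, and PCF11 had a log2 fold change of -0.55, called without DMSO replicate 2 (-0.61) or THZ531 replicate 3 (-0.60), with equal totals (-0.80) and with RPL34 scaling (-1.05). EXOSC10-AS1 (-0.26) and EXOSC10 (0.19) were not called, nor were NCBP2-AS1 (0.60, with overlapping groups) and NCBP2 (-0.01).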

How the data were processed

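PolyA plus RNA-seq of 6 OVCAR3 libraries was used, 3 with DMSO and 3 with THZ531. The authors mapped reads on hg38 with STAR (version 2.7.5a in the submitters' processing notes), counted them on FAST DB genes with featureCounts, divided by DESeq2 size factors and deposited the result as a normalized signal per locus. Values were whole multiples of 1 read in 100% of cases per library (tolerance 0.02), so reads were recovered.

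Members and gene lists were chosen with earlier results of these data known. Loci with 10 or more in 3 or more libraries were tested on log2(value + 1) with limma 3.58.1 (trended variance, R 4.3.3, no covariates), and fold changes on this scale understate the change of low loci. Calls took a 1.5-fold change and p no higher than 0.05 before adjustment, and Benjamini-Hochberg adjustment ran over all loci. Pairs were loci that overlap or lie within 10 kb, plus each antisense RNA with its sense gene. Errors are SD over libraries or SE of the fit. Alternatives included edgeR 4.0.16 and DESeq2 1.42.0 on recovered reads.

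Named antisense RNAs were the 8 largest rises and falls (called, mean of at least 50, groups apart), the 6 highest means, the 4 largest opposite pairs each way, the 3 nearest the minimum on each side and a list of well-known members. Pairs with shared promoter windows, those near the limit of detection, and PCF11-AS1, EXOSC10-AS1 and NCBP2-AS1 were named after their values were seen. Strand and exons came from GENCODE v44, older symbols and promoter windows from RefSeq.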

Additional observations from a re-analysis of the deposited data

How the results depend on the processing

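Of 195 calls among the antisense RNAs, 191 were made the same way by edgeR, 189 by DESeq2, 165 with RPL34 scaling, 176 with equal totals and 171 to 182 without 1 library, and none was called the other way under any alternative. The replicate numbers do not pair the samples (correlations of deviations between same-numbered libraries 0.00, 0.02 and -0.04); with a replicate block, 47 rose and 149 fell.

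Counts of antisense RNAs called higher moved to 29 of 219 with a minimum of 50, 30 with equal totals and 19 with RPL34; among those that overlap no expressed named locus, 9 rose and 37 fell. Pairs with the antisense change above the sense change numbered 39 of 187 with a minimum of 50 and 122 of 735 with none, where fewer or more pairs were tested. With RPL34, 12 other noncoding RNAs rose and 37 fell, and in the termination and decay list 1 rose and 8 fell (1 rose with equal totals, and 3 to 5 without 1 library, with 5 when DMSO replicate 3 or THZ531 replicate 3 was left out). The cause was not tested beyond the shift of all loci under each scaling.

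Signs that turned all belong to genes not called. With RPL34 the log2 fold change was -0.079 for CCDC144NL-AS1, -0.38 for ATP6V0E2, -0.31 for EXOSC10, -0.27 for ITGB2, -0.32 for NNT, -0.15 for PLS3, -0.054 for PSMA3, -0.29 for TRHDE, -0.13 for UBXN7 and -0.21 for VIM. With equal totals it was -0.13 for ATP6V0E2, -0.057 for EXOSC10, -0.022 for ITGB2, -0.072 for NNT and -0.044 for TRHDE. UBXN7-AS1 turned to 0.23 with DESeq2, 0.22 with edgeR and 0.050 with a pseudocount of 10. Without 1 library, the ranges were -0.057 to 0.015 for FGD5-AS1, -0.90 to 0.92 for UBXN7-AS1, -0.44 to 0.42 for ADAMTSL4, -0.074 to 0.060 for ATP2C2, -0.038 to 0.018 for NCBP2, -0.18 to 0.053 for TMPO and -0.27 to 1.00 for TTN.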
